A study of Homo sapiens with 12 samples.

Results

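The genes described here set how much pyruvate enters the mitochondrion and is turned into acetyl-CoA. They are the 4 pyruvate dehydrogenase kinases PDK1, PDK2, PDK3 and PDK4, the phosphatases PDP1 and PDP2, the E1 subunits PDHA1 and PDHB, and the carrier subunits MPC1 and MPC2. They were chosen by symbol, and all 10 were found among the 54628 symbols of the count table. After a filter on low counts, 15173 genes were tested, with all 10 members among them.

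The pyruvate dehydrogenase complex sits in the mitochondrial matrix and joins glycolysis to the citric acid cycle. The kinases phosphorylate the E1 alpha subunit, encoded by PDHA1, which switches the complex off, and the phosphatases take the phosphate away again. Pyruvate reaches the complex through the mitochondrial pyruvate carrier, a heterodimer of MPC1 and MPC2. In many tissues PDK4 is the kinase gene that responds to fasting and fatty acids, and PDK1 is known as a hypoxia-responsive gene.

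OCI-AML3, an established line of human acute myeloid leukaemia cells, was treated for 24 h, and its poly(A) RNA was sequenced in 4 groups of 3 libraries. The groups were Comb, which received ABT199 together with ERKi, ERKi alone (an ERK inhibitor labelled compound 27), ABT199 alone (venetoclax, an inhibitor of the survival protein BCL2), and DMSO, the solvent control. The series asks how ERK inhibition acts on venetoclax resistance. All groups come from this 1 line, the doses are not given here, and no label says that replicates were separate cultures. The p-values therefore rest on the spread between these libraries, which may be technical. RNA levels show neither the amount of these proteins nor the phosphorylation of the complex.

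Libraries held 19199296 to 21275065 counts. Levels are given as counts per 1e+06 counts of the scaled library (CPM), in the order replicate 1, 2 and 3, and log2 fold changes come with their standard error (SE). Adjusted p-values are from edgeR's quasi-likelihood test with Benjamini-Hochberg adjustment over all 15173 genes, and a gene was called below 0.05. The blood lineage markers PTPRC, SPI1, CEBPA and CSF3R were present in every library (at least 1222 counts each), whereas CD34 had at most 6, MPO 18 to 63, and CD3D, MS4A1 and HBB had 0. The 8 myeloid markers summed to 2231 to 2280 CPM in Comb, 2238 to 2270 CPM in ERKi, 1133 to 1166 CPM in ABT199 and 1175 to 1227 CPM in DMSO. Of the 7 tested, 6 were called higher and 1 lower with ERKi against DMSO, beside 34.5% and 35.2% of all genes. All 7 were called higher with Comb against DMSO, beside 30.4% of all genes. Mean MPO was 3.11 CPM in Comb, 0.996 CPM in ERKi, 1.75 CPM in ABT199 and 1.72 CPM in DMSO. The summed fibroblast markers were 2.10 to 2.48 CPM in Comb, 10.4 to 25.2 CPM in ERKi, 13.2 to 24.4 CPM in ABT199 and 6.23 to 35.04 CPM in DMSO, and the part of either marker list in the results below was not tested. One control library, DMSO replicate 1, differed most from its group: chi-square over degrees of freedom was 17.93 and 16.91 for its pairs, and 2.34 to 5.52 for all other replicate pairs. All 8 listed ERK output genes were called lower in ERKi and in Comb against DMSO, beside 35.2% and 33.4% of all genes tested. In Comb against ERKi, 6 of them were called higher (EGR1 at 1.39) and 2 lower (PHLDA1 at -2.07), beside 26.5% and 24.3% of all genes. With ABT199 alone 0 of the 8 were called, beside 0.402% of all genes. An unadjusted p under 0.05 was found for 0 of the 8 and for 1382 of all 15173 genes.

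With ERKi against DMSO, 5 members rose (PDK2, PDK3, PDK4, PDP1 and MPC2) and 4 fell (PDP2, PDHA1, PDHB and MPC1), in a comparison where 69.7% of all genes tested were called (34.5% higher and 35.2% lower). With Comb against DMSO, all 4 kinases rose, and both phosphatases, both E1 subunits and MPC1 fell. Here 63.8% of all genes were called, 30.4% higher and 33.4% lower. The members' median log2 fold change was 0.14 with ERKi and -0.14 with Comb, against 0.01 and -0.01 over all genes tested. Counts of called members were the same without DMSO replicate 1, which both comparisons share along with the other DMSO libraries. With most genes called in both comparisons, the count of 9 of 10 is no result about the members, whose sizes and directions are given below. In bulk RNA, fewer cells of a type and less RNA per cell cannot be told apart.

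**Figure D1:**
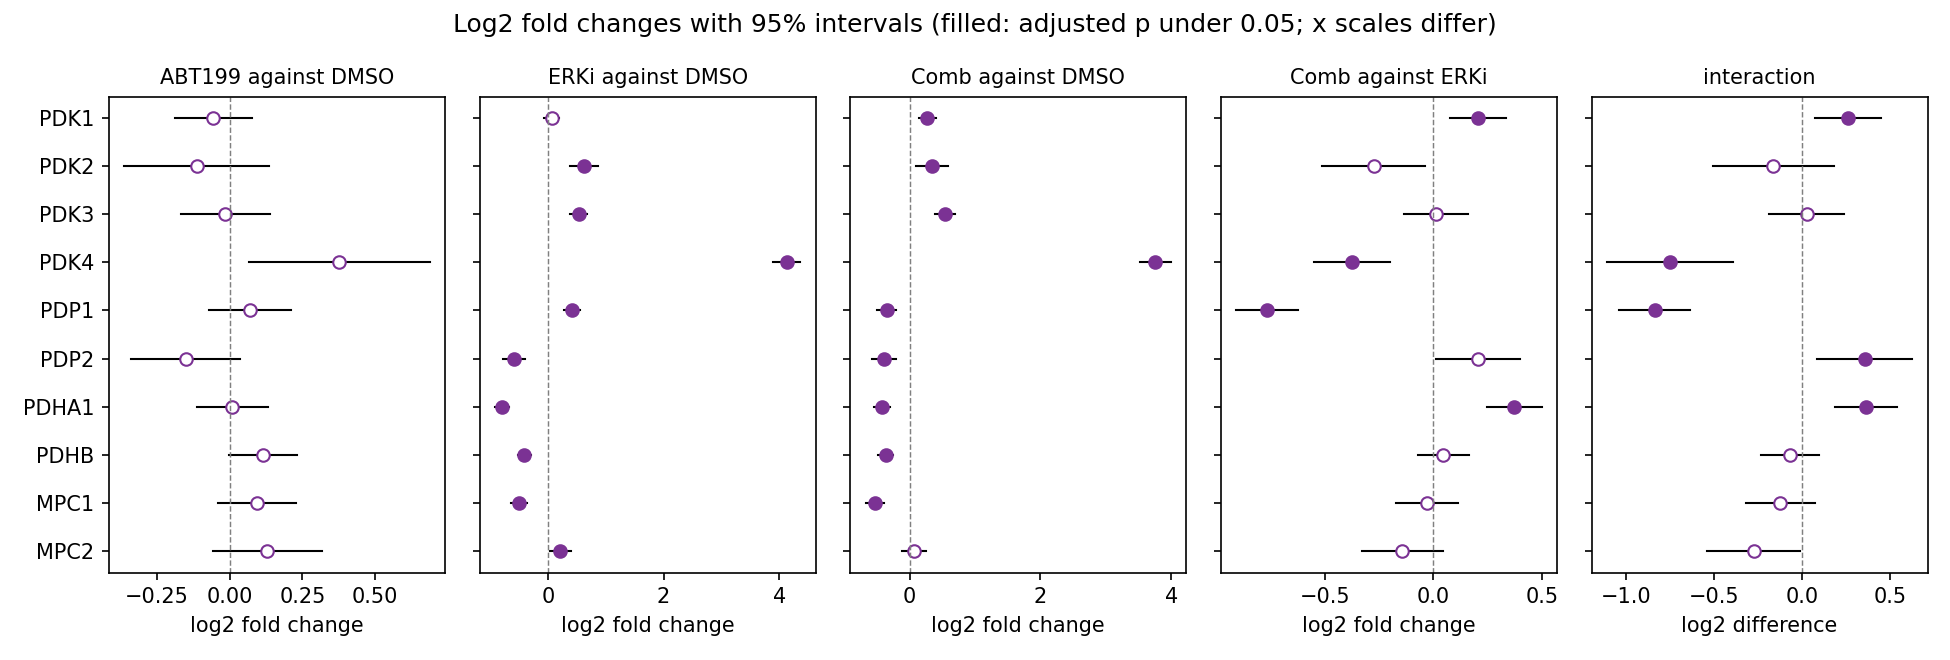
Log2 fold changes of the 10 genes (rows) in 5 panels, for ABT199, ERKi and Comb against DMSO, Comb against ERKi and the interaction (a difference of log2 fold changes), each point with its 95% interval from the edgeR fit and filled where the adjusted p is under 0.05. The x scales differ between panels. PDK4 stands at 4.13 with ERKi and 3.76 with Comb, all other members lie within 1 log2 unit of 0, and PDP1 is above 0 with ERKi and below 0 with Comb.

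The promoter windows of 3 members are printed because their genes show the contrasting patterns below: PDK4 rose most, PDK1 was called higher in Comb but not in ERKi, and PDHA1 encodes the subunit that the kinases act on. The sequences are from RefSeq (GRCh38.p14), 250 bases before to 50 bases after the start the table uses, 5′ to 3′ on the gene's strand. Capitals mark CCAAT, the CCAAT box, or ACGTG, the core bound by hypoxia-inducible factors, on either strand.
PDK4 (chr7:95596467-95596766, minus strand): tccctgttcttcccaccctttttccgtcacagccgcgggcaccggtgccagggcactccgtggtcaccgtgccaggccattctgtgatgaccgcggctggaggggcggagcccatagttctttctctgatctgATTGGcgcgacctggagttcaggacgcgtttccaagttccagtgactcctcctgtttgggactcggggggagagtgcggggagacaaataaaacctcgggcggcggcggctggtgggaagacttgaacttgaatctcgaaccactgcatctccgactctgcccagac
PDK1 (chr2:172555840-172556139, plus strand): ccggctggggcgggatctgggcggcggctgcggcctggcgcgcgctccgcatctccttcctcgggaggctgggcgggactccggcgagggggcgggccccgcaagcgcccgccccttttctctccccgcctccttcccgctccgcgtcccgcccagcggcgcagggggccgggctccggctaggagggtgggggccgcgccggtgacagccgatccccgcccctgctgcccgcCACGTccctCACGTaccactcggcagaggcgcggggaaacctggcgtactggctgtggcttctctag
PDHA1 (chrX:19343677-19343976, plus strand): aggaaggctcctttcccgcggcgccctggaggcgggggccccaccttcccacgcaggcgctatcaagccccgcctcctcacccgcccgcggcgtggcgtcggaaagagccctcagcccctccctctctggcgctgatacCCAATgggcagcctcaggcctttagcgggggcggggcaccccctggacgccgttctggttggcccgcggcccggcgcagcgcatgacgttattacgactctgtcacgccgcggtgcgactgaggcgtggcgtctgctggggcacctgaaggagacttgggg
The PDK4 and PDHA1 windows each hold 1 CCAAT box, at position -117 (minus strand) and -111 (plus strand) from the start. PDK1 has ACGTG on the minus strand at positions -17 and -8, counted from a start that lies inside the annotated gene, which begins at 172555373 on chromosome 2.

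Windows were found for 9 of the 10 members, all except PDP1. CCAAT was present in 6 of these 9 (PDK3, PDK4, PDP2, PDHA1, PDHB and MPC1) and in 34.6% of the 35116 promoters of that length. ACGTG was present in 4 of 9 (PDK1, PDK3, PDP2 and PDHB) against 21.4% of all promoters, and CACGTG, an E-box that contains ACGTG on both strands, in PDP2 and PDHB against 7.26%. The forkhead core TGTTTAC (3.42% of promoters), the nuclear receptor core AGGTCA (13.8%) and TATAAA (11.5%) were in none of the 9 windows on either strand. These matches are letters in a window, and no binding was measured.

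PDK4 changed most of all members. It lies on chromosome 7 (95583499 to 95596516, minus strand) and encodes the kinase isoform linked to fatty acid use. Its level was 27.4, 26.5 and 27.6 CPM in Comb, 34.3, 35.9 and 35.3 CPM in ERKi, 2.89, 2.18 and 2.71 CPM in ABT199, and 2.13, 1.60 and 2.28 CPM in DMSO. These levels rest on 489 to 541 counts in Comb and 725 to 777 in ERKi, against 34 to 48 in DMSO. All 3 ERKi libraries were above all 3 Comb libraries, and both groups were far above the others.

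Against DMSO, PDK4 rose 17.5-fold with ERKi (log2 fold change 4.13, SE 0.111, adjusted p = 1.15e-14), which ranks it 82nd of 15173 genes by absolute size. In Comb it rose 13.5-fold (3.76, SE 0.112, adjusted p = 7.96e-14), and against ABT199 by 3.38 (SE 0.109, adjusted p = 1.72e-13). Comb was lower than ERKi itself (-0.37, SE 0.0828, adjusted p = 0.0013). ABT199 alone gave 0.38 (SE 0.147) with an unadjusted p of 0.0281, but an adjusted p of 0.498. The interaction, which is the departure of Comb from the sum of both single effects, was -0.75 (SE 0.168, adjusted p = 0.00226). ABT199 and DMSO libraries overlapped, as did no other pair of groups for this gene.

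PDK4-AS1, a long non-coding RNA transcribed away from PDK4 from a start 162 bases beyond it (chromosome 7, 95596679 to 95611117), does not overlap PDK4. It had 15, 13 and 11 counts in Comb, 14, 21 and 18 in ERKi, 0, 2 and 1 in ABT199, and 1, 2 and 2 in DMSO. The start of this RNA lies within the printed PDK4 window. It rose by 3.28 (SE 0.527, adjusted p = 3.22e-05) with ERKi and by 3.01 (SE 0.548, adjusted p = 0.000144) with Comb against DMSO, with very few counts in the DMSO libraries.

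PDK1, on chromosome 2, was the kinase that was not called with ERKi alone. It had 78.1, 71.1 and 77.3 CPM in Comb, 66.1, 63.9 and 66.4 CPM in ERKi, 63.4, 59.7 and 57.9 CPM in ABT199, and 57.0, 64.9 and 66.2 CPM in DMSO. Every Comb library was above every other library, and the ERKi libraries lay within or just above the DMSO range. ERKi against DMSO gave 0.06 (95% interval -0.07 to 0.19, adjusted p = 0.374). Comb was higher than DMSO by 0.27 (SE 0.0616, adjusted p = 0.00115), than ABT199 by 0.32 (SE 0.0619, adjusted p = 0.000213) and than ERKi by 0.21 (SE 0.0615, adjusted p = 0.0105). The step from ERKi to Comb was no longer called without Comb replicate 1 (adjusted p = 0.0569) or Comb replicate 3 (0.0533), or with library totals in place of scaling factors (0.08, adjusted p = 0.298).

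PDK3, a kinase gene on chromosome X, was higher in both ERKi-treated groups. Its level was 87.1, 77.5 and 77.6 CPM in Comb, 79.9, 79.2 and 80.9 CPM in ERKi, 54.9, 54.8 and 54.8 CPM in ABT199, and 48.0, 57.7 and 60.3 CPM in DMSO. All Comb and ERKi libraries were above all ABT199 and DMSO libraries, and Comb overlapped ERKi. Against DMSO it rose by 0.53 (SE 0.0709, adjusted p = 4.16e-06) with ERKi and by 0.55 (SE 0.0712, adjusted p = 4.26e-06) with Comb. Between Comb and ERKi the difference was 0.01, with a 95% interval of -0.13 to 0.16.

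PDK2, a kinase isoform of low level here, had 10.98, 9.32 and 11.4 CPM in Comb, 11.99, 13.6 and 12.7 CPM in ERKi, 7.94, 7.45 and 7.69 CPM in ABT199, and 9.28, 7.30 and 8.39 CPM in DMSO. It rose by 0.62 (SE 0.113, adjusted p = 0.000122) with ERKi and by 0.34 (SE 0.115, adjusted p = 0.0154) with Comb against DMSO. The smaller rise rests on few libraries: leaving out DMSO replicate 2, Comb replicate 1 or Comb replicate 3 gave adjusted p-values of 0.0857, 0.0531 and 0.0703. Comb was below every ERKi library, with a difference of -0.27 that missed the threshold (adjusted p = 0.0504). Under the alternatives its adjusted p ran from 0.00669, with library totals, to 0.19, and limma-voom gave 0.0337. Of PDK2's annotated exon bases, 38.6% overlap SAMD14 on the opposite strand, which had 0 to 8 counts per library.

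Because the kinases moved unequally, their shares of the summed kinase counts shifted. PDK4 made up 13.4%, 14.4% and 14.2% of these counts in Comb, 17.9%, 18.6% and 18.1% in ERKi, 2.24%, 1.76% and 2.20% in ABT199, and 1.83%, 1.22% and 1.66% in DMSO. PDK1's share was 38.4% to 39.9% in Comb, 33.2% to 34.4% in ERKi, 47.0% to 49.1% in ABT199 and 48.2% to 49.3% in DMSO. The 4 kinases together reached 184 to 204 CPM in Comb, 192 to 195 CPM in ERKi, 123 to 129 CPM in ABT199 and 116 to 137 CPM in DMSO. Counts are not corrected for transcript length, so these are shares of reads and not of molecules.

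Per kilobase of annotated exon, PDK4 was the lowest kinase in DMSO, at a mean of 0.443 CPM per kb of exon union, below PDK2 at 1.52, PDK1 at 4.21 and PDK3 at 11.2. With ERKi it reached 7.79, against 2.33 for PDK2, 4.4 for PDK1 and 16.2 for PDK3. Its place relative to PDK1 depended on the length used: over the shortest principal transcript PDK4 had 9.84 and PDK1 21.9 CPM per kb with ERKi. Under either length PDK4 was above PDK2 with ERKi and below it in DMSO.

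**Figure D2:**
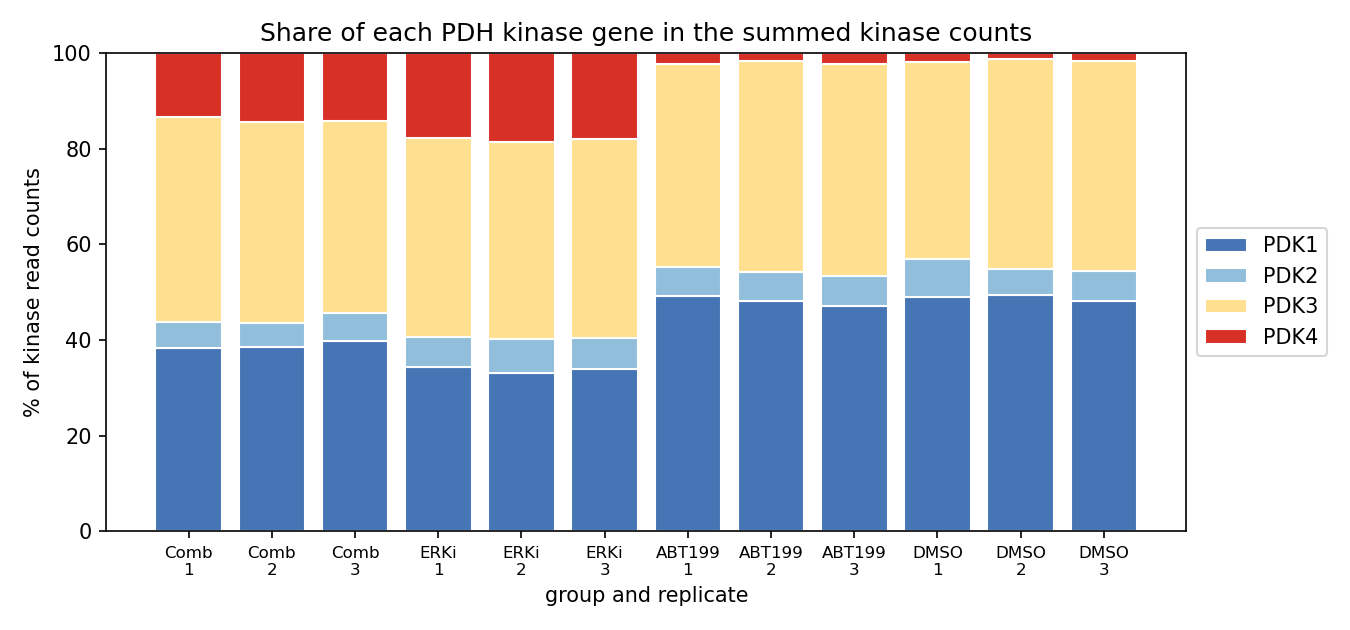
Share in percent of the summed counts of the 4 kinases that each kinase took in each library, with the Comb, ERKi, ABT199 and DMSO libraries from left to right. PDK4 takes 13.4% to 18.6% of kinase counts in the 6 libraries with ERKi and 1.22% to 2.24% in the 6 libraries without it.

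The phosphatases, which reactivate the complex, moved in different directions with ERKi. PDP1, the calcium-stimulated isoform, lies on chromosome 8 and had 43.9, 45.4 and 43.7 CPM in Comb, 73.2, 76.4 and 76.8 CPM in ERKi, 60.4, 57.1 and 60.8 CPM in ABT199, and 49.4, 60.6 and 59.8 CPM in DMSO. ERKi libraries were the highest and Comb libraries the lowest, with no overlap with any other group. It rose by 0.41 (SE 0.0656, adjusted p = 2.76e-05) with ERKi against DMSO and fell with Comb: it fell by 0.35 (SE 0.0679, adjusted p = 0.000253) against DMSO and fell by 0.42 (SE 0.0679, adjusted p = 3.84e-05) against ABT199.

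Directly, Comb had 0.588 times the PDP1 level of ERKi (log2 -0.77, SE 0.0671, adjusted p = 1.42e-07). ABT199 alone gave 0.07 (95% interval -0.07 to 0.21). The interaction was -0.84 (SE 0.0944, adjusted p = 6.38e-06), and without DMSO replicate 1, the lowest DMSO library for PDP1, it was -0.75 (adjusted p = 1.92e-08).

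PDP2, the second phosphatase, had 13.4, 11.8 and 12.1 CPM in Comb, 10.7, 10.9 and 10.8 CPM in ERKi, 14.7, 15.1 and 14.3 CPM in ABT199, and 14.6, 17.7 and 16.6 CPM in DMSO. ERKi libraries were the lowest, Comb next, and both lay below all libraries without ERKi. Against DMSO it fell by 0.59 (SE 0.0895, adjusted p = 1.61e-05) with ERKi and fell by 0.39 (SE 0.0892, adjusted p = 0.00116) with Comb. Its difference between Comb and ERKi was 0.21 (adjusted p = 0.0717). Against ABT199, Comb was lower (-0.24, adjusted p = 0.0282), a call lost by DESeq2 (0.0658), without the low-count filter (0.121), and without ABT199 replicate 1 or 2 or Comb replicate 2 or 3 (0.0557 to 0.0903).

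PDP1 and PDP2 together summed to 55.8 to 57.3 CPM in Comb, 83.9 to 87.6 CPM in ERKi, 72.1 to 75.1 CPM in ABT199 and 64.0 to 78.3 CPM in DMSO. The summed kinases in Comb and ERKi overlapped, whereas the summed phosphatases of Comb lay below all other libraries. PDP1 held most of the phosphatase counts in every group, and per kilobase of exon union it stood at 7.92 in Comb, 13.5 in ERKi, 10.6 in ABT199 and 10.1 in DMSO.

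**Figure D3:**
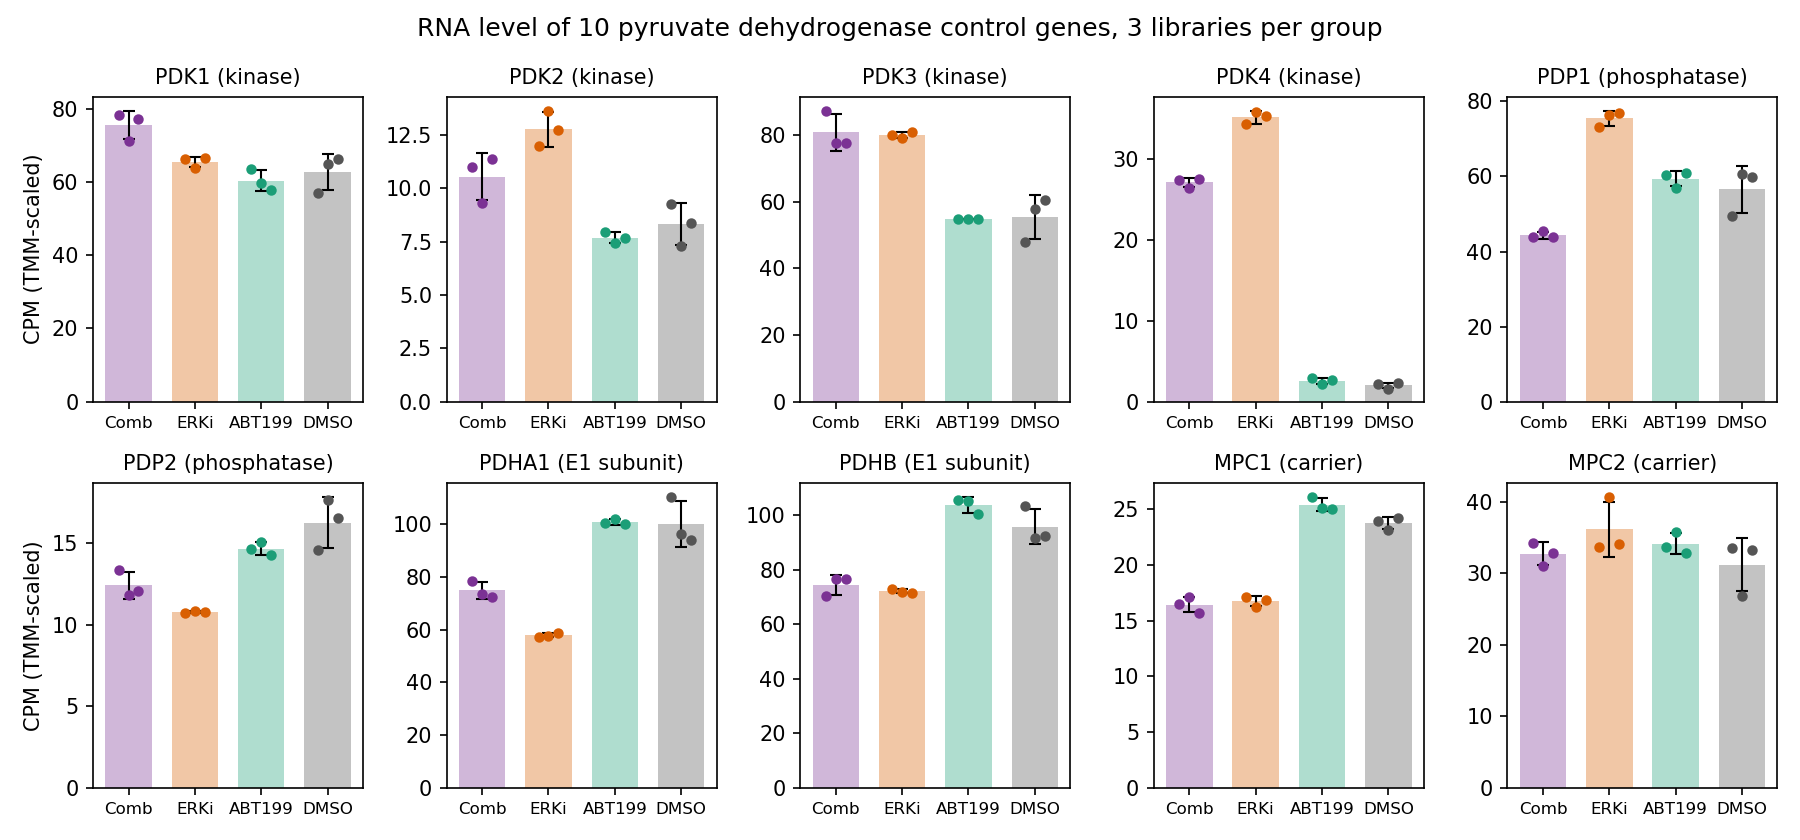
CPM of the 10 genes in each of the 12 libraries, 1 panel per gene, with Comb, ERKi, ABT199 and DMSO from left to right, points for libraries and bars for the mean ± SD (n = 3). PDK4 separates libraries with ERKi (26.5 to 35.9 CPM) from those without (1.60 to 2.89 CPM), and PDP1 is highest in ERKi and lowest in Comb.

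Both E1 subunits, the substrate-decarboxylating part of the complex, were lower wherever ERKi was present. PDHA1 had 78.7, 73.7 and 72.3 CPM in Comb, 57.4, 57.5 and 58.7 CPM in ERKi, 101, 102 and 100.02 CPM in ABT199, and 110, 96.5 and 94.1 CPM in DMSO. The ERKi libraries were lowest, Comb intermediate, and ABT199 overlapped DMSO. PDHA1 fell by 0.79 (SE 0.0591, adjusted p = 3.01e-09) with ERKi and fell by 0.42 (SE 0.0585, adjusted p = 8.62e-06) with Comb against DMSO. Comb was above ERKi by 0.37 (SE 0.0598, adjusted p = 7.72e-05), and the interaction was 0.36 (SE 0.0831, adjusted p = 0.00258). MAP3K15, on the opposite strand, covers 21.3% of PDHA1's exon bases and had 8 to 24 counts per library.

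PDHB, the E1 beta subunit, averaged 74.5 ± 3.61 CPM in Comb, 72.1 ± 0.716 CPM in ERKi, 104 ± 2.84 CPM in ABT199 and 95.8 ± 6.48 CPM in DMSO (SD, n = 3 each). It fell by 0.41 (SE 0.0553, adjusted p = 4.79e-06) with ERKi and fell by 0.36 (SE 0.0555, adjusted p = 2.40e-05) with Comb against DMSO. Comb and ERKi overlapped, with a difference of 0.05 and a 95% interval of -0.07 to 0.17, unlike PDHA1, where Comb was above ERKi in all libraries.

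MPC1 was lower in both groups with ERKi, and MPC2 changed little. MPC1 averaged 16.4 ± 0.700 CPM in Comb, 16.8 ± 0.455 CPM in ERKi, 25.4 ± 0.592 CPM in ABT199 and 23.8 ± 0.571 CPM in DMSO (SD, n = 3 each). It fell by 0.50 (SE 0.0649, adjusted p = 2.79e-06) with ERKi and fell by 0.53 (SE 0.0656, adjusted p = 2.18e-06) with Comb against DMSO, and Comb differed from ERKi by -0.03 (95% interval -0.17 to 0.11). MPC1 in ABT199 lay above all DMSO libraries by a small step that was not called (0.09, adjusted p = 0.679).

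MPC2 had 34.3, 31.1 and 32.8 CPM in Comb, 33.7, 40.6 and 34.1 CPM in ERKi, 33.7, 35.8 and 32.9 CPM in ABT199, and 33.5, 26.9 and 33.2 CPM in DMSO. It was called higher with ERKi against DMSO (0.21, SE 0.0878, adjusted p = 0.0403). That call rests on ERKi replicate 2, the highest library, and DMSO replicate 2, the lowest: without them the adjusted p was 0.266 and 0.253. It was also lost when the 6 libraries were fitted alone (0.0962). DCAF6 overlaps 22.5% of MPC2's exon bases on the opposite strand and itself rose by 0.68 (adjusted p = 1.66e-09) with ERKi, and whether the counting used strand is not stated. Comb against DMSO gave 0.07 for MPC2 (95% interval -0.12 to 0.26).

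Adding ERKi to ABT199 changed the same number of members as ERKi or Comb against DMSO. Of the 10, 4 were higher and 5 lower in Comb against ABT199, where 66.2% of all genes were called, 32.1% higher and 34.2% lower. The kinases rose by 0.32 (PDK1) to 3.38 (PDK4), and PDP1, PDP2, PDHA1, PDHB and MPC1 had log2 fold changes of -0.24 to -0.63. MPC2 did not pass (-0.06, adjusted p = 0.565).

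ABT199 alone moved none of the 10 by edgeR, DESeq2 or limma-voom, and 1, PDK4, had an unadjusted edgeR p under 0.05. In that comparison 0.402% of all genes were called, 0.0198% higher and 0.382% lower. Apart from PDK4, log2 fold changes ran from -0.15 (PDP2) to 0.13 (MPC2), and the widest 95% interval among these members was PDK2's, from -0.36 to 0.14.

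On top of ERKi, ABT199 raised PDK1 and PDHA1 and lowered PDK4 and PDP1, which is 4 of 10 members against 50.9% of all genes called in Comb against ERKi (26.5% higher and 24.3% lower). In the interaction, 3 members were positive (PDK1, PDP2 and PDHA1) and 2 negative (PDK4 and PDP1), against 39.2% of all genes (21.3% positive and 18.0% negative). With library totals in place of TMM factors the median of all genes moved by -0.12 in Comb against ERKi and by -0.11 in the interaction. The higher share of all calls was then 34.8%, against 52.1% with TMM, in Comb against ERKi, and 38.3%, against 54.2%, in the interaction. PDK4, PDP1 and PDHA1 kept their direction and call in both under that scaling. PDP2's interaction (0.36, SE 0.127, adjusted p = 0.035) was lost by DESeq2 (0.0574) and with library totals (0.139), and PDK1's (0.26, SE 0.0874, adjusted p = 0.0259) with library totals (0.194). PDK1's interaction was also lost without DMSO replicate 2 or 3, ABT199 replicate 3, ERKi replicate 2, or Comb replicate 1 or 3 (adjusted p = 0.0504 to 0.0714), and PDP2's on leaving out any library (0.0538 to 0.106) other than DMSO replicate 1, ABT199 replicate 2 or Comb replicate 2.

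A further list of 4 genes held the complex subunits DLAT, DLD and PDHX, and PDPR of the phosphatase. With ERKi against DMSO, the 3 complex subunits fell and PDPR was not called, where 35.2% of all genes fell and 34.5% rose. The median of the 4 was -0.64, against 0.01 over all genes. DLAT, the E2 acetyltransferase core, averaged 40.2 ± 1.06 CPM in Comb, 31.9 ± 1.59 CPM in ERKi, 79.4 ± 0.591 CPM in ABT199 and 76.0 ± 3.12 CPM in DMSO (SD, n = 3 each). It fell by 1.25 (SE 0.0524, adjusted p = 1.85e-12) with ERKi and fell by 0.92 (SE 0.0519, adjusted p = 1.58e-10) with Comb. DLD, the E3 dehydrogenase shared with related complexes, gave -0.65 with ERKi and -0.41 with Comb, and PDHX, the E3-binding protein, -0.63 and -0.48, all called.

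PDPR, the regulatory subunit of the phosphatase, gave 0.03 with ERKi (adjusted p = 0.628). It was called higher in Comb against DMSO (0.13, adjusted p = 0.04), a call lost without DMSO replicate 1 (0.07, adjusted p = 0.138) or without any single Comb library (0.0784 to 0.113). In Comb against ERKi, DLAT was higher by 0.33 (adjusted p = 8.85e-05), DLD by 0.24 (0.000437) and PDHX by 0.15 (0.0454), and only PDPR was not called (0.10, adjusted p = 0.124). The PDHX step was lost under 11 of 14 alternatives, among them DESeq2 (0.0629), ERKi replicate 2 or 3 left out (0.16 and 0.103) and any Comb library left out (0.1 to 0.164).

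The 14 listed genes around pyruvate make, carry or use it, or act downstream of the complex (CS and ACLY). With ERKi against DMSO, 11 of them fell and 3 rose, where 35.2% of all genes fell and 34.5% rose. Their median was -0.62, against 0.01 over all genes. Those that fell were LDHA (-1.14) and LDHB (-0.66), the lactate dehydrogenase subunits, PKM (-0.87), the pyruvate kinase, PC (-0.45), the pyruvate carboxylase, GPT2 (-1.86), the mitochondrial alanine aminotransferase, ME2 (-0.94), a mitochondrial malic enzyme, CS (-0.52), the citrate synthase, ACLY (-1.09), the ATP citrate lyase, and the monocarboxylate transporters SLC16A1 (-1.30), SLC16A3 (-0.43) and SLC16A7 (-0.58). Those that rose were ME1 (1.32), the cytosolic malic enzyme, ME3 (0.89), the other mitochondrial malic enzyme, and GPT (1.56), the cytosolic alanine aminotransferase. LDHA averaged 606 ± 17.3 CPM in Comb, 468 ± 9.86 CPM in ERKi, 1076 ± 23.7 CPM in ABT199 and 1029 ± 24.8 CPM in DMSO.

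In Comb against DMSO, 8 of the 14 fell and 2 rose (ME3 1.56 and GPT 1.40), while CS, PC, SLC16A3 and ME1 were not called. Of all genes 33.4% fell and 30.4% rose there. ME1 gave 0.17 there (adjusted p = 0.0704), and averaged 20.4 ± 0.909 CPM in Comb, 45.3 ± 2.35 CPM in ERKi, 19.5 ± 1.71 CPM in ABT199 and 18.1 ± 1.27 CPM in DMSO (SD, n = 3 each). Comb against ERKi called 11 of the 14 higher (26.5% of all genes) and 2 lower (24.3% of all genes), ME1 (-1.15, adjusted p = 5.78e-09) and SLC16A7 (-0.38), and all 13 kept their direction and call with library totals. The SLC16A7 call was lost without ERKi replicate 1 (adjusted p = 0.0505). PKM was higher in Comb than in ERKi by 0.55 (adjusted p = 8.76e-07), CS by 0.47 and LDHA by 0.37. In the interaction 11 were positive (21.3% of all genes) and 2 negative (18.0% of all genes), and LDHB, GPT2, ME2, ME3 and SLC16A1 were no longer called with library totals. Of these, GPT2, ME2, ME3 and SLC16A1, and also SLC16A7 (-0.42), lost their interaction calls when some single libraries were left out.

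**Figure D4:**
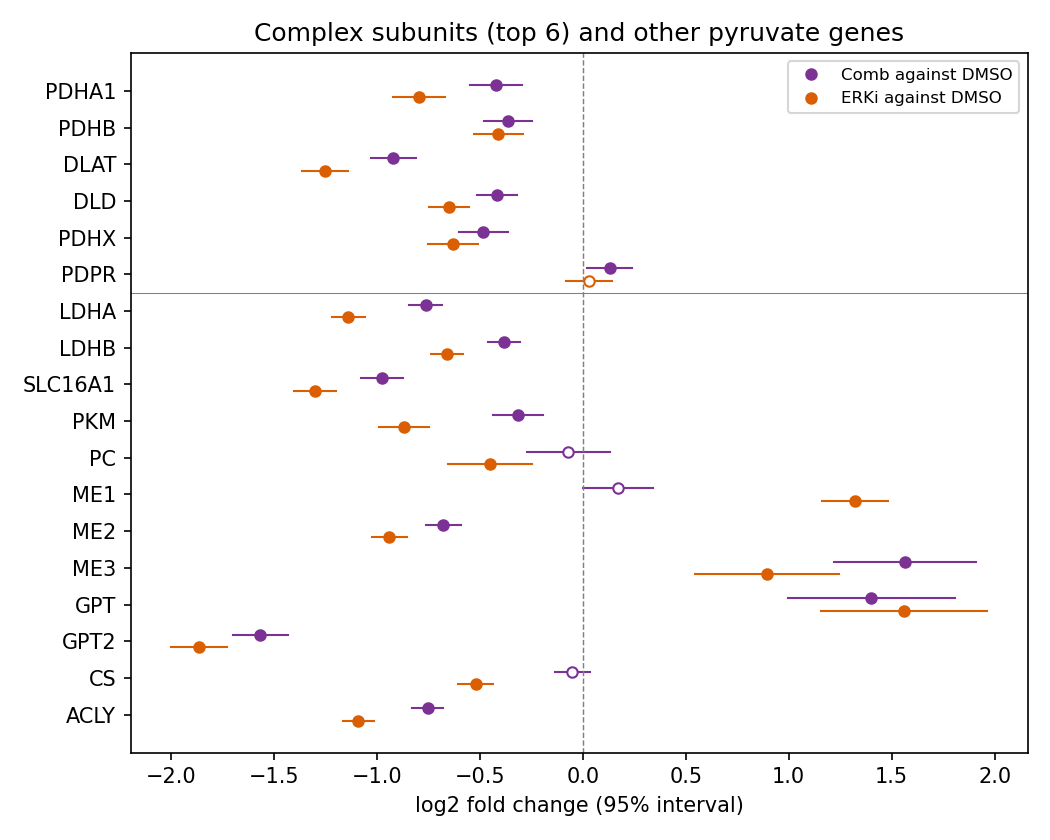
Log2 fold change against DMSO (95% interval), with Comb above ERKi in each row and points filled where the adjusted p is under 0.05. The top 6 rows are the complex subunits PDHA1, PDHB, DLAT, DLD and PDHX, and PDPR of the phosphatase. The 12 rows below are genes from the list around pyruvate, with CS and ACLY among them. With ERKi, DLAT lies at -1.25 and LDHA at -1.14, and ME1, ME3 and GPT lie above 0, whereas ME1 in Comb (0.17) is not called.

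Among 10 tested genes for the lipoyl and thiamine cofactors of the complex, 5 fell and 2 rose with ERKi against DMSO (median -0.17, against 0.01 over all genes). These 7 of 10 are near the 69.7% of all genes called, so the count is no result about the list. BOLA3, an iron-sulphur factor for lipoylation, fell by 2.14, GLRX5, a mitochondrial glutaredoxin, fell by 0.76 and SLC19A2, a thiamine transporter, fell by 0.88. BOLA3 averaged 5.31 ± 0.720 CPM in Comb and 2.60 ± 0.734 CPM in ERKi, against 11.5 ± 2.03 CPM in DMSO (SD, n = 3 each). In Comb against DMSO the count was again 5 lower and 2 higher, beside 33.4% and 30.4% of all genes.

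Among the related keto acid dehydrogenase genes, 4 of 7 were lower and 2 higher with ERKi, beside 35.2% and 34.5% of all genes, with a median of -0.22 against 0.01. PPM1K, the phosphatase of the branched-chain complex, rose by 1.10 and its kinase BCKDK fell by 0.52, while DLST, the E2 of the oxoglutarate complex, fell by 0.45 and DBT, the E2 of the branched-chain complex, rose by 0.40. PPM1K, like PDP1, was lower in Comb than in ERKi (-0.83), and was not called in Comb against DMSO. In Comb 4 of the 7 were lower than in DMSO and 0 higher by edgeR (33.4% and 30.4% of all genes), with 5 at an unadjusted p under 0.05.

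Of 12 genes reported as regulators of PDK transcription, 9 were higher and 2 lower with ERKi, beside 34.5% and 35.2% of all genes, with a median of 0.44 against 0.01. EPAS1, a hypoxia-inducible factor, rose by 2.40, PPARG, a nuclear receptor, by 1.41 and the forkhead factor FOXO4 by 1.39, while MYC fell by 0.92. HIF1A, another hypoxia-inducible factor on this list, had a lower mean in both groups with ERKi than in DMSO. Its level was 54.3 ± 3.41 CPM in Comb, 59.2 ± 0.672 CPM in ERKi, 73.5 ± 2.23 CPM in ABT199 and 67.4 ± 5.53 CPM in DMSO (SD, n = 3 each). In Comb against DMSO 7 rose and 3 fell (30.4% and 33.4% of all genes), with EPAS1 at 1.69 and PPARG at 1.76. FOXO1, a forkhead factor, rose by 0.35 with ERKi and fell by 1.07 with Comb, at 5.12 ± 0.360 CPM in Comb, 13.8 ± 1.48 CPM in ERKi and 10.8 ± 0.703 CPM in DMSO. Comb against ERKi called 7 of the 12 lower (24.3% of all genes), with FOXO1 (-1.43), EPAS1 (-0.71) and PPARA (-0.69) among them, and 4 higher (26.5% of all genes), with MYC at 0.57.

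Lists of reported targets of these factors were counted in the same way, with all genes as the background: 34.5% rose and 35.2% fell with ERKi, 30.4% rose and 33.4% fell with Comb against DMSO, and 26.5% were higher and 24.3% lower in Comb against ERKi. The lists were chosen with earlier results of these data known, so their counts are descriptions and no independent support. Of 13 FOXO targets, 12 rose and 1, GADD45A (-0.75), fell with ERKi, with TXNIP at 0.78, KLF2 at 1.78, INSR at 0.71 and SESN3 at 0.86, and a list median of 0.71. In Comb against DMSO 8 rose and 2 fell, and in Comb against ERKi 2 were higher and 7 lower. Of 12 PPAR targets, 5 rose and 5 fell with ERKi (median 0.04), with the carnitine palmitoyltransferase CPT1A at 1.22 and the carnitine carrier SLC25A20 at 1.03 against CPT2 at -0.54. Of 14 hypoxia targets, 8 rose and 6 fell with ERKi (median 0.37), with PFKFB3 at 0.94 and BNIP3L at 0.95 against DDIT4 at -2.12 and SLC2A1 at -1.02, whereas 4 rose and 7 fell with Comb.

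The genes whose log2 CPM followed PDK4 most closely over the 12 libraries were ID2, SLC23A2, SYNPO, DAPK1 and ABCA7, with Pearson's r of 0.996 for ID2 and 0.995 for ABCA7, among 9666 protein-coding genes ranked. ID2, an inhibitor of helix-loop-helix factors, averaged 54.6 ± 1.96 CPM in Comb, 59.6 ± 1.60 CPM in ERKi, 23.2 ± 1.15 CPM in ABT199 and 21.6 ± 0.418 CPM in DMSO (SD, n = 3 each). Their rises with ERKi against DMSO, from 1.16 (DAPK1) to 2.27 (ABCA7), were all smaller than that of PDK4. The 5 closest to PDK1 were DDHD2 (r = 0.939), PSD3, IL31RA, FNBP4 and SKIL (r = 0.904), each higher in Comb than in ERKi, by 0.20 (FNBP4) to 0.95 (SKIL). These libraries share groups, and the correlations are descriptions of the same 4 group means.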

How the data were processed

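The deposited table holds raw read counts per gene symbol for 12 libraries. The submitters' processing notes name HISAT2, HTSeq, DESeq2 and hg38; versions, annotation and use of strand are not stated in these sources. The deposited counts went into edgeR 4.0.16 (R 4.3.3): filterByExpr (minimum count 10, minimum total 15), TMM factors, 1 model over 12 libraries with 8 residual degrees of freedom, and the quasi-likelihood test with Benjamini-Hochberg adjustment. Changes are relative to the TMM scaling. The prior count was 0.125, and each SE is the fold change over the square root of F. Genes were named by rule. All 10 members, DLAT, DLD, PDHX, PDPR and the listed genes around pyruvate were named. So were up to 4 called genes by adjusted p per other list and comparison. The 5 genes most like PDK4 and PDK1 at a mean CPM of at least 5 were named too. GADD45A, HIF1A, FOXO1 with ERKi and with Comb against DMSO, and PPM1K in Comb were added after their values were seen. Some genes that met the rule are left out of the text. Members and lists were chosen with earlier results of these data known. Positions and promoters are from RefSeq (51616 symbols matched) and exon lengths and overlaps from GENCODE, both GRCh38. The scripts were tested on simulated counts. Alternatives were RLE factors, DESeq2 1.42.0, limma-voom (limma 3.58.1), no filter, CPM 1 in 3 libraries, a replicate block, only the libraries compared, each library left out and, chosen after seeing the data, library totals. Figures used matplotlib 3.10.9.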

Additional observations from a re-analysis of the deposited data

Results flagged for a closer look

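For 5 of the 10 genes the interaction term of the edgeR model was called (adjusted over all genes tested), beside 39.2% of all genes. This term compares the effect of ABT199 with and without ERKi. None of the 10 genes was called for ABT199 on top of DMSO. PDP1 had an interaction of -0.84 (adjusted p = 6.38e-06): ABT199 gave -0.77 on top of ERKi and 0.07 on top of DMSO. PDK4 had -0.75 (adjusted p = 0.00226), from -0.37 on top of ERKi and 0.38 on top of DMSO. PDHA1 had 0.36 (adjusted p = 0.00258), from 0.37 and 0.01. PDP2 had 0.36 (adjusted p = 0.035), from 0.21 and -0.15, neither of them called. PDK1 had 0.26 (adjusted p = 0.0259), from 0.21 and -0.06. The interaction calls of PDP2 and PDK1 were lost with library totals (adjusted p = 0.139 and 0.194) and without some single libraries.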

How the results depend on the processing

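Of the values of the 10 genes recomputed under each alternative, 134 of 140 kept their direction and side of the threshold with ERKi against DMSO. The number was 136 of 140 with Comb against DMSO, 126 of 140 with Comb against ERKi and 164 of 190 in the interaction. With ABT199 against DMSO it was 133 of 140, and the other 7 reversed their sign. With Comb against ABT199 it was 134 of 140, and the other 6 lost their call. The counts of called members moved by over 1.5 times in Comb against ERKi and in the interaction. With library totals, 1 was higher and 4 were lower in Comb against ERKi, and 1 was positive in the interaction; leaving out single libraries gave 1 to 2 higher and 2 to 3 lower in Comb against ERKi (1 higher without Comb replicate 1 or 3), and 1 to 3 positive in the interaction. PDPR, which is not among the 10 genes counted above, is included in what follows. Reversed signs were limited to log2 fold changes near 0 that were not called. Leaving out single libraries, these ran for ABT199 against DMSO from -0.11 to 0.051 (PDK3), -0.018 to 0.12 (PDP1) and -0.036 to 0.083 (PDHA1), for ERKi against DMSO from -0.0084 to 0.095 (PDK1) and -0.037 to 0.064 (PDPR), for Comb against DMSO from -0.032 to 0.12 (MPC2), for Comb against ERKi from -0.054 to 0.030 (PDK3) and for the interaction from -0.037 to 0.12 (PDK3). With library totals they were -0.0066 (PDHA1, ABT199 against DMSO), -0.11 (PDK3), -0.077 (PDHB) and -0.023 (PDPR) in Comb against ERKi, and -0.078 (PDK3) in the interaction. The CPM filter gave -0.0040 (PDK3) and no filter 0.0029 (MPC1) in Comb against ERKi. The cause was not tested. Library totals also brought PDK1 in ERKi against DMSO (adjusted p = 0.0469), PDK2 (0.00669) and MPC2 (0.0175) in Comb against ERKi, and MPC2 in the interaction (0.0222) past the threshold. The replicate numbers showed no sign of pairing the libraries: deviations of same-numbered libraries correlated at -0.074 to 0.094. These deviations, each from a mean of 3 libraries, also hold counting noise, so low correlations cannot exclude a pairing. With the replicate number as a block, 4 members were higher and 4 lower with ERKi against DMSO, MPC2 being lost (adjusted p = 0.0563), and 2 positive and 2 negative in the interaction, PDP2 being lost (0.0509). Over all genes, no filter called 74 higher and 168 lower with ABT199 against DMSO, against 3 and 58. PDK4 in DMSO and ABT199, at 34 to 58 counts per library, is where depth limits the members most.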
